A study of Petunia x hybrida with 10 samples.

Results

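Air-only m1A regions are stretches of petunia petal RNA that carried a peak of N1-methyladenosine (m1A) in every library from air-kept corollas and in no library from ethylene-treated corollas. Peaks of the 6 m1A lists that had at least 1 bp in common were joined into 1 region, which gave 36717 regions, and 488 of them (1.33%) had a peak in all 3 air libraries and in none of the 3 ethylene libraries. The regions were chosen by the presence and absence of peaks, so their number and the lack of ethylene peaks in them are descriptions and carry no test. The libraries came from corollas of petunia cultivar Mitchell after 16 h with 2 µl/l ethylene (m1A libraries ethylene 1 to 3) or after 16 h in air (air 1 to 3), and another 2 ethylene and 2 air libraries from the same kind of tissue are titled N6-methyladenosine (m6A). Their protocol text lists an anti-m1A antibody too, so "m6A-titled" refers to the title and not to a verified target. The labels do not tell whether replicate libraries were made from different plants, and p-values over libraries therefore cover the variation among these libraries alone, which may be technical. The lists hold peaks and no genes, so markers of petal tissue were not checked.

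m1A is an adenosine with a methyl group on the edge that pairs with the opposite base. It carries a positive charge, blocks normal base pairing and is best known from transfer and ribosomal RNA, with demethylases that can remove it. Ethylene is the gaseous plant hormone that sets off senescence of the petunia corolla after pollination, a programme with wide changes in transcript levels. A peak called after immunoprecipitation marks a stretch of RNA recovered with the antibody. The input libraries were not analysed here, so a lower transcript level, fewer cells of a type, less RNA per cell and less modification per transcript cannot be told apart as the reason for a missing peak.

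The lists differed much in length. The ethylene lists held 7526, 1013 and 8059 peaks and the air lists 15593, 17573 and 6760, at a read depth that the lists do not give. Ethylene 2 is the shortest list and air 3 the shortest of the air lists, and a rule that asks for a peak in every air list and no ethylene list depends on these lengths. The air-only regions made up 7.26% of all regions of air 3, 3.15% of those of air 1 and 2.79% of those of air 2.

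Of the 1490 regions present in all 3 air libraries, 488 (32.8%) were air-only and 1002 also had an ethylene peak. Among the 3014 regions found in exactly 3 libraries, 16.2% were air-only. The set of air 1, air 2 and air 3 ranked behind 2 mixed sets of libraries among the 20 possible sets of 3, which were ethylene 3 with air 1 and air 2 (647 regions) and ethylene 1 with air 1 and air 2 (533 regions). The reverse pattern, all 3 ethylene libraries and no air library, held 13 regions (0.0354% of all regions). Sets of 3 that included ethylene 2, the shortest list, held 8 to 36 regions each, also those with 2 air libraries. The 13 regions lie within that range and cannot be set against the 488 as a difference between treatments. Leaving out a library changed the number of air-only regions to 738 without ethylene 1, 502 without ethylene 2 and 755 without ethylene 3. It became 1216 without air 1, 1051 without air 2 and 2959 without air 3, so that air 3 limited the set most.

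The border of the rule was narrow in base pairs for a few regions. There were 538 regions with all 3 air libraries and exactly 1 ethylene library, through ethylene 1 in 253, ethylene 2 in 14 and ethylene 3 in 271. Just outside lay Peaxi162Scf00016 395972 to 396583, a region of 612 bp that was left out through 8 bp shared between an air peak and a peak of ethylene 1. Overlaps of 10 bp also left out Peaxi162Scf00304 789435 to 789927 and Peaxi162Scf00398 712387 to 712437. Such short overlaps were rare, with 36 of the 538 sharing 50 bp or less and a median overlap of 220 bp. Just inside lay Peaxi162Scf00689 188412 to 188604, whose nearest ethylene peak was 71 bp away (distances run from edge to edge, with touching peaks at 1 bp).

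The air-only regions were mostly short and built from 1 peak of each air library. Their median width was 253.5 bp, with quartiles of 150.5 and 422.25 bp and a range of 5 to 2910 bp. In 476 of the 488 each air library gave a single peak, 11 held 4 peaks and 1 held 5. The 2513 regions in exactly 3 libraries of mixed treatment had a similar median of 263 bp. Regions of all 3 air and at least 1 ethylene library were wider at 377.5 bp, and those of 2 air and no ethylene library narrower at 195 bp. Width grows with the number of peaks merged, so the last 2 comparisons are between regions made from different numbers of libraries.

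**Figure D1:**
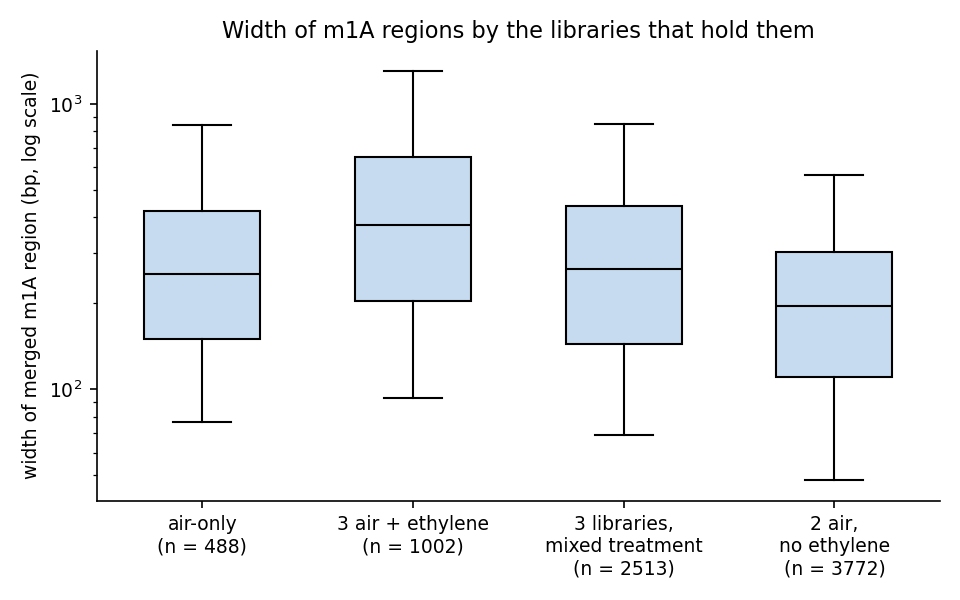
Width of merged m1A regions in bp on a log scale, for the 488 air-only regions, the 1002 regions of 3 air and 1 or more ethylene libraries, the 2513 regions of 3 libraries of mixed treatment and the 3772 regions of 2 air and no ethylene library. Lines are medians, boxes quartiles and whiskers the 5th to 95th percentile, and the air-only box lies close to that of the other regions of 3 libraries.

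Single peaks of the air-only regions had median widths of 194 bp in air 1, 204.5 bp in air 2 and 195 bp in air 3. These were above the medians of the whole lists, which were 159, 158 and 160 bp, and below those of peaks in regions shared with ethylene, which were 281.5, 300 and 248 bp. The order was the same in each of the 3 air libraries. The mean of the 3 medians was 198 ± 5.80 bp for air-only regions and 276.5 ± 26.4 bp for the regions shared with ethylene (SD, n = 3 libraries). It was 166 ± 4.62 bp for regions of 2 air and no ethylene library and 114 ± 5.51 bp for those of 1 air library only. Single peaks were thus wider in regions found in more libraries, and the order is not particular to the air-only regions.

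The widest air-only regions arose where peaks of unequal length were chained. Peaxi162Scf00199 257030 to 259939, the widest at 2910 bp, was spanned by 1 peak of air 2, while the top peaks of air 1 and air 3 covered 666 and 657 bp and did not meet each other. Peaxi162Scf00228 291930 to 293476 was 1547 bp wide, with top peaks of 1256 bp in air 1, 638 bp in air 2 and 250 bp in air 3. Peaxi162Scf00218 653444 to 654737 (1294 bp) and Peaxi162Scf00045 1703367 to 1704634 (1268 bp) also had no base common to all 3 libraries. In contrast, the 1274 bp of Peaxi162Scf00020 337981 to 339254 held a core of 534 bp under a peak of each library.

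A core shared by all 3 air libraries was present in 446 of the 488 regions (91.4%) and missing in 42. The core had a median length of 105 bp and a median share of 51.1% of the region's width. The longest core, 851 bp, lay in Peaxi162Scf00291 789470 to 790561, where the peaks measured 901 bp in air 1, 1092 bp in air 2 and 1042 bp in air 3. Peaxi162Scf00271 718387 to 719209 followed with 711 bp of core, under peaks of 774, 820 and 741 bp in air 1, 2 and 3. Among the mixed regions of 3 libraries 92.8% had a core and its median length was 112 bp, so the air-only regions were not set apart from them by this measure.

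Many air-only regions began or ended at exactly the same base in all 3 air libraries. The start was identical in 179 regions (36.7%), the end in 176 (36.1%) and both in 46 (9.43%), and 309 (63.3%) had at least 1 identical edge. The mixed regions of 3 libraries had identical starts in 35.9%, identical ends in 36.0% and both in 10.8%. These shares were close to those of the air-only regions. Between air 1 and air 2 alone 48.2% of the air-only regions had the same start, and 42.4% between either of them and air 3. With 1 air library left out, more regions passed the rule. Their share of identical starts was 45.3% without air 1, 44.3% without air 2 and 48.2% without air 3. Fewer lists then have to tie, and these regions were also narrower, with median widths of 210, 219 and 201 bp. The part of each was not tested.

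The widest regions with both edges identical were Peaxi162Scf00171 437751 to 438431 (681 bp) and Peaxi162Scf00599 14945 to 15598 (654 bp). Peaxi162Scf00282 494449 to 494814 (366 bp), Peaxi162Scf00209 351796 to 352078 (283 bp) and Peaxi162Scf00003 4779732 to 4780003 (272 bp) were the next. Scores tied in all 3 air libraries in 5 of the 46 regions with both edges identical, among them Peaxi162Scf00599 14945 to 15598 with 3100 in each. The others differed, and Peaxi162Scf00003 4779732 to 4780003 scored 1976 in air 1, 3100 in air 2 and 216 in air 3, and Peaxi162Scf00282 494449 to 494814 scored 612, 300.33 and 3100. Regions with both edges identical had a median width of 143.5 bp, against 421 bp for the 179 regions with neither edge identical. Width is the span of the merged peaks, so edges that differ widen a region by construction. The cores differed less, with medians of 143.5 bp and 161 bp in the same order.

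Scores were read within each list only, because their scale is not given. A score of exactly 3100 was the most common value in every m1A list, and scores above it reached 3233. In air 1, 38.3% of the air-only regions reached 3100 or more, against 41.0% of all peaks of that list. The shares were 53.5% against 55.0% in air 2 and 65.8% against 67.9% in air 3. The air-only regions, each counted by its highest peak, therefore sat slightly below their whole list, counted by single peaks, in each air library. Regions shared with ethylene stood higher in each, at 47.5, 63.7 and 69.7% in air 1, 2 and 3. Regions of 2 air and no ethylene library stood close to the air-only ones, at 39.0, 51.5 and 67.0% in the same order. Those of 1 air and no ethylene library reached 43.6, 57.0 and 70.9%, above the air-only share in each list. A share below that of regions shared with ethylene was thus not particular to the air-only regions. Over the 3 libraries the mean share was 52.5 ± 13.8% for the air-only regions and 60.3 ± 11.5% for the shared ones (SD, n = 3). Within the libraries the air-only share minus the shared one was -9.19, -10.2 and -3.88 points, with a mean of -7.75 ± 3.39 points (SD, n = 3), lower in 3 of 3 libraries.

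**Figure D2:**
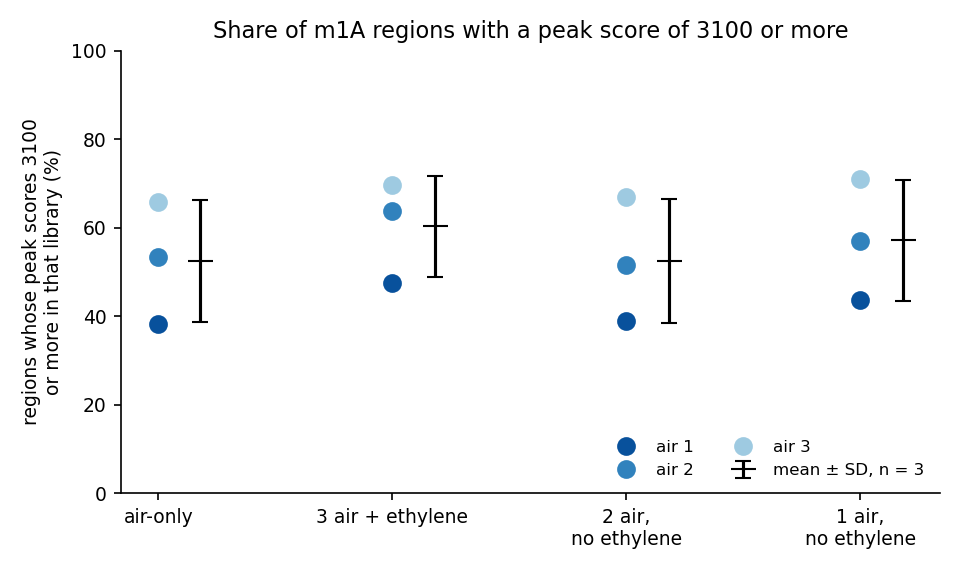
Percentage of regions whose peak scored 3100 or more in air 1, air 2 and air 3 (points), with mean and SD over the 3 libraries (bars), for 4 kinds of region. In each library the air-only point (38.3, 53.5 and 65.8%) lies below that of regions shared with ethylene (47.5, 63.7 and 69.7%). It lies close to that of regions of 2 air and no ethylene library (39.0, 51.5 and 67.0%).

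The air-only regions differed in how many air libraries gave them a score of 3100 or more. Of the 488 regions, 75 (15.4%) reached 3100 in all 3 air libraries, 182 in 2, 180 in 1 and 51 (10.5%) in none. These counts depend on the share in each library (38.3, 53.5 and 65.8% in air 1, 2 and 3). Agreement of scores between libraries beyond that was not tested. The highest mean within-list percentile belonged to Peaxi162Scf00843 206976 to 207202, which scored 3173 in air 1 and 3100 in both air 2 and air 3. It was followed by Peaxi162Scf00100 786772 to 786953, with 3139, 3100 and 3100. The other named regions of this kind, Peaxi162Scf00000 4078881 to 4079444, Peaxi162Scf00001 3601747 to 3601844 and Peaxi162Scf00003 4655689 to 4656432, scored 3100 throughout and were taken by position from those tied. At the low end, the region with the longest core, Peaxi162Scf00291 789470 to 790561, scored 758 in air 1 and 177 in air 2 but 3100 in air 3.

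Most air-only regions had ethylene m1A peaks in their neighbourhood, though none inside them by the rule. An m1A peak of some ethylene library lay within 1 kb of 144 of the 488 air-only regions (29.5%) and within 5 kb of 314 (64.3%), and 3 regions lay on scaffolds without any ethylene m1A peak. By library, a peak lay within 1 kb of 86 regions in ethylene 1 (17.6%), of 12 in ethylene 2 (2.46%) and of 91 in ethylene 3 (18.6%). The mean was 12.9 ± 9.07% (SD, n = 3), and without ethylene 2, whose list is the shortest, 502 regions passed the rule and the mean over ethylene 1 and 3 was 18.6%. Of the 144, 103 had peaks of 1 ethylene library nearby, 37 of 2 and 4 of all 3. These distances concern the contrast that chose the regions and are given without a test.

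**Figure D3:**
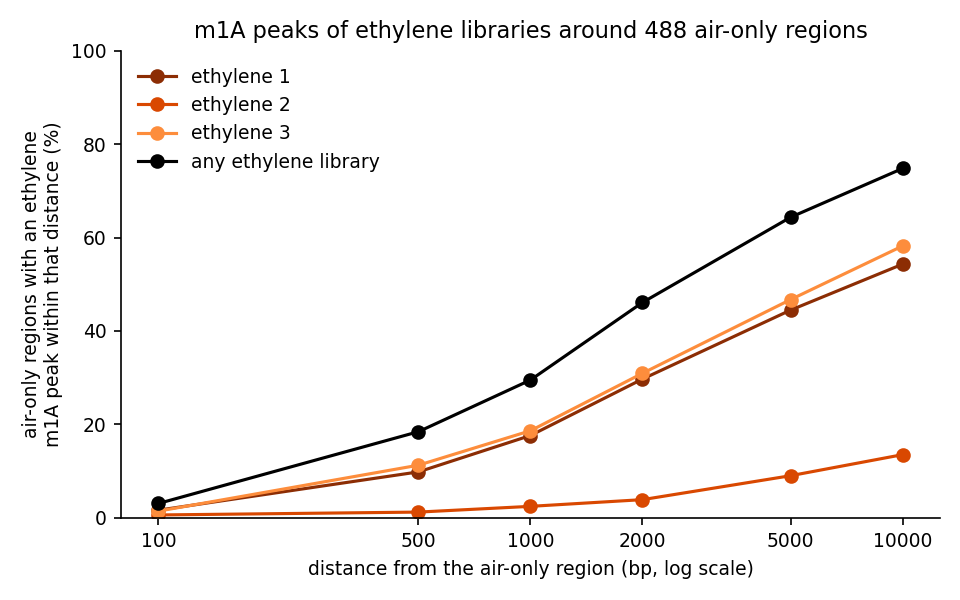
Cumulative percentage of the 488 air-only regions with an ethylene m1A peak within a given distance in bp (log scale), for each ethylene library and for any of them. The line for any library passes 29.5% at 1000 bp and 64.3% at 5000 bp, and the line of ethylene 2 lies far below those of ethylene 1 and 3.

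Regions with less support in air had ethylene peaks nearby somewhat less often. Of the 3772 regions in 2 air and no ethylene library, 27.3% had an ethylene peak within 1 kb and 59.9% within 5 kb. The shares were 24.2% within 1 kb and 54.4% within 5 kb for the 18239 regions in 1 air library only. The 29.5% of air-only regions within 1 kb was thus near that of the regions in 2 air libraries. The same order held within 5 kb in each ethylene list. In ethylene 1 the shares were 44.5, 40.1 and 34.6% for regions of 3, 2 and 1 air libraries. In ethylene 2 the shares were 9.02, 6.63 and 5.33%, and in ethylene 3 they were 46.7, 42.2 and 37.9%. Wider regions reach farther, and the 3 kinds differ in width, whose part in this order was not tested.

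When list length was divided out, the share of ethylene peaks around the air-only regions was close to that of the other air peaks. Of the peaks outside the air-only regions, 1.18, 1.18 and 1.27% of the lists ethylene 1, 2 and 3 and 1.03, 1.12 and 1.53% of the lists air 1, 2 and 3 lay within 1 kb of an air-only region. The means were 1.21 ± 0.0474% for ethylene and 1.23 ± 0.269% for air (SD, n = 3 each). Within 5 kb they were 4.48 ± 0.409% and 4.72 ± 0.748% in the same order of treatments. The ranges of the treatments overlapped at both distances.

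Of 485 air-only regions with a distance, 15 (3.09%) had an ethylene peak within 100 bp and none within 50 bp. Of 3716 regions of 2 air and no ethylene library, 106 (2.85%) had one within 100 bp and 28 (0.753%) within 50 bp. Peaxi162Scf00689 188412 to 188604 had its neighbour, a peak of 139 bp that scored 3100 in ethylene 1, at 71 bp. Peaxi162Scf00286 543088 to 543355 lay 81 bp from a peak of ethylene 3, Peaxi162Scf00007 352821 to 352974 lay 82 bp from another, and Peaxi162Scf00445 1048853 to 1049032 and Peaxi162Scf00229 1205120 to 1205326 lay 83 and 86 bp from peaks of ethylene 1. Each of these regions had 1 edge at the same base in all 3 air libraries.

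The ethylene peaks within 1 kb of air-only regions were ordinary members of their own lists. Those of ethylene 1 had a median within-list percentile of 49.6 (89 peaks), those of ethylene 2 of 64.4 (12 peaks) and those of ethylene 3 of 71.2 (102 peaks). In ethylene 2 and 3 the median neighbour scored 3100, as did 70.6 and 55.1% of those lists. The values 64.4 and 71.2 are the middle ranks of these ties and do not mark high-ranking peaks. A score of 3100 or more was reached by 46.1, 66.7 and 54.9% of them, against 43.2, 70.9 and 56.3% of the whole lists of ethylene 1, 2 and 3.

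Other air-only regions lay far from any ethylene m1A peak. The most distant on a scaffold with ethylene peaks was Peaxi162Scf00157 1379937 to 1380538, at 735671 bp from a peak of ethylene 3. It scored 2143 in air 1, 3100 in air 2 and 800 in air 3, over peaks of 202, 602 and 279 bp. Peaxi162Scf00094 1985422 to 1985962 lay 599492 bp away and had low within-list percentiles of 17.3, 30.9 and 0.0814 in air 1, 2 and 3. Peaxi162Scf00211 1710362 to 1710487 and Peaxi162Scf00404 675094 to 675393 lay 572221 and 527989 bp away. The first of these had an m6A-titled peak at 3956 bp in both ethylene and both air libraries. Peaxi162Scf00883 337108 to 337985, at 480523 bp from an ethylene m1A peak, had no core common to its 3 peaks.

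The air-only regions were spread over 304 of the 1240 scaffolds with an m1A region. Of these scaffolds 201 held 1 air-only region and 62 held 2, and the most, 10, lay on Peaxi162Scf00016, which had 504 m1A regions in all. The number of air-only regions per scaffold followed the number of all m1A regions per scaffold (Pearson r = 0.72 and Spearman rho = 0.52 over 1240 scaffolds, which share libraries and differ in length). The median distance to the nearest m1A region of any kind was 769.5 bp for air-only regions and 762 bp for all regions. Close neighbours were less frequent around air-only regions, with 4.10% against 7.11% within 100 bp and 10.7% against 15.9% within 200 bp. This difference was not tested.

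Of the 488 air-only regions, 49 (10.04%) had another within 5 kb. Among the 538 regions of 3 air and exactly 1 ethylene library, 70 had another of their kind within 5 kb. The counts were 217 of the 1002 regions shared with ethylene (21.7%) and 739 of the 2513 mixed regions of 3 libraries (29.4%). These sets differ in size, whose part in the shares was not tested. The air-only share became 15.4% without ethylene 3, 18.5% without air 1, 16.5% without air 2 and 31.6% without air 3. More regions pass the rule in these cases. Chaining them at 5 kb gave 23 pairs, 1 stretch of 3 and 439 single regions. The stretch of 3 lay on Peaxi162Scf00274 364083 to 369875 and spanned 5793 bp. It held 10 air peaks (4 in air 1, 3 in air 2 and 3 in air 3), no ethylene m1A peak and no m6A-titled peak. Its regions were 237, 72 and 133 bp wide, each with a start shared by all 3 air libraries. Among the pairs, Peaxi162Scf00001 3294739 to 3296268 likewise held air peaks alone. Peaxi162Scf00007 348415 to 352974 differed, with 3 peaks of ethylene 3 beside 2, 2 and 5 peaks of air 1, 2 and 3.

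**Figure D4:**
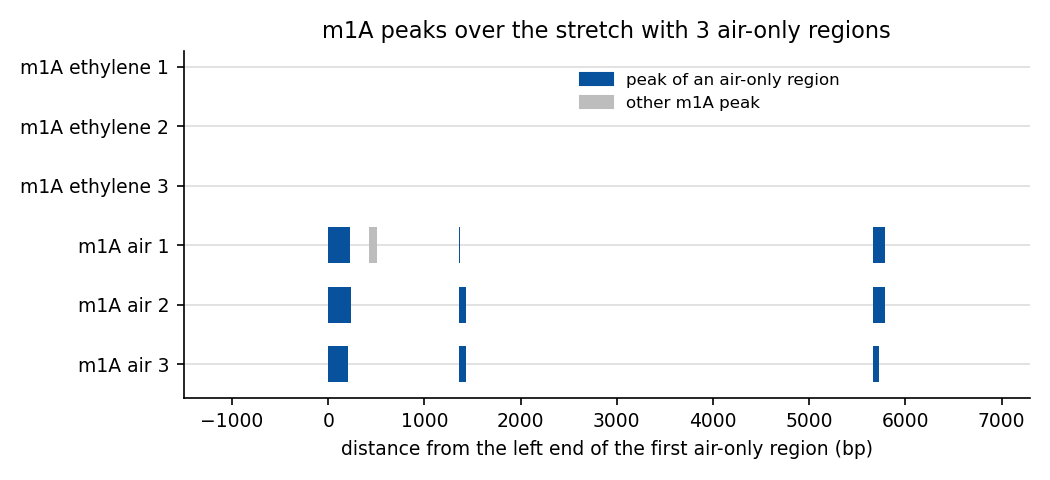
m1A peaks of each library over the stretch with 3 air-only regions, as distance in bp from its left end, with ethylene libraries above air libraries. Blue bars are peaks of the air-only regions, the grey bar is another m1A peak of air 1, and the 3 ethylene rows are empty.

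The m6A-titled lists, which the choice of regions did not use, rarely coincided with the air-only regions. An m6A-titled peak of any library overlapped 18 of the 488 (3.69%, 95% exact binomial interval 2.20 to 5.77%, counting error only). The share was 4.81% in the mixed regions of 3 libraries, 4.99% in regions of all 3 air and at least 1 ethylene library and 4.21% in all m1A regions. These shares lie inside that interval, which takes regions as independent and is not a test between the sets. Within 5 kb an m6A-titled peak was found for 75 air-only regions (15.4%), against 16.7% of all m1A regions.

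The share of air-only regions with an m6A-titled peak nearby was measured in 2 ethylene and 2 air libraries, too few for an exact permutation test between them to reach 0.05. A peak lay within 5 kb of 51 and 32 regions in the m6A-titled ethylene libraries 1 and 2, and of 38 and 39 in the air libraries 1 and 2. The air values thus fell between the ethylene values. The mean shares were 8.50 ± 2.75% for ethylene and 7.89 ± 0.145% for air (SD, n = 2 each), a difference of 0.61 percentage points, ethylene minus air (exact two-sided permutation p = 1 over 6 regroupings, smallest possible 0.33). Its sign turned without m6A-titled ethylene library 1 (-1.33 points), and it was 2.56 points without ethylene library 2. Of direct overlaps, 11 and 10 regions were met in the ethylene libraries and 12 and 11 in the air libraries. As a share of each list, 3.17 and 2.21% of the ethylene peaks and 2.43 and 2.57% of the air peaks lay within 5 kb.

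**Figure D5:**
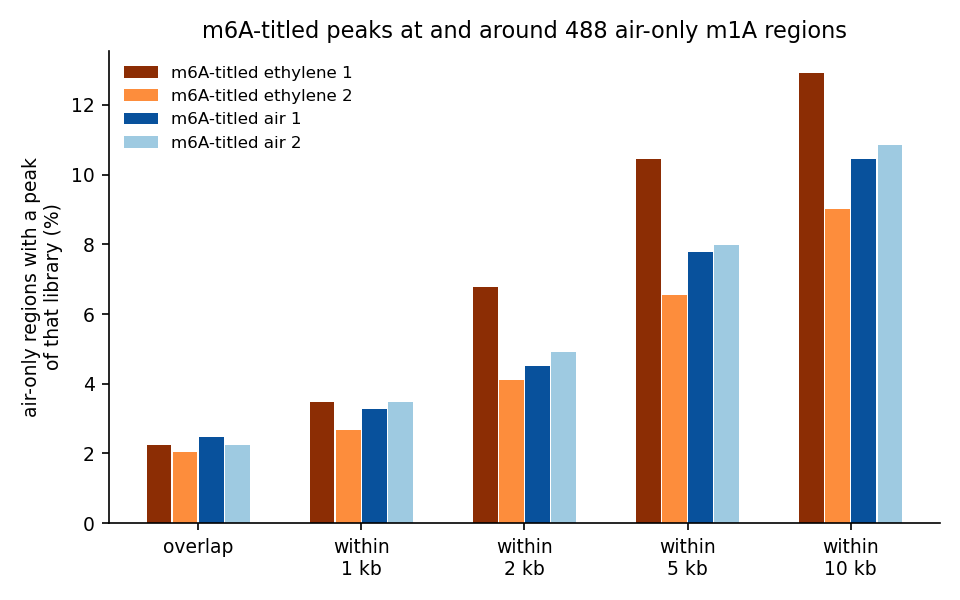
Percentage of the 488 air-only m1A regions that overlapped a peak of each m6A-titled library or had one within 1 to 10 kb. Bars are single libraries, and at 5 kb the ethylene bars (10.5 and 6.56%) lie on either side of the air bars (7.79 and 7.99%).

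Presence in the 4 m6A-titled libraries was compared between the m6A-titled regions near air-only m1A regions and all m6A-titled regions. Of the 86 m6A-titled regions within 5 kb, 1 (1.16%) was in both ethylene and no air library, against 2.56% of all 3280 m6A-titled regions. Another 5 (5.81%) were in both air and no ethylene library, against 4.21% of all, and 16 (18.6%) were in all 4, against 17.0%. The counts are too small to separate from these shares.

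Among the 18 air-only regions with an m6A-titled overlap, 3 were met in ethylene libraries alone, 6 in air libraries alone and 9 in both. All 4 m6A-titled libraries overlapped 7 of them. Peaxi162Scf00784 61313 to 61576 had the same 264 bp as a peak in 3 m1A air libraries and 4 m6A-titled libraries. Its m6A-titled within-list percentiles were 93.5 and 88.9 in ethylene 1 and 2 and 97.2 and 97.3 in air 1 and 2, and its m1A scores were 3100, 3100 and 297 in air 1, 2 and 3. Peaxi162Scf00294 363447 to 363451, the narrowest region at 5 bp, likewise had identical bounds in all 7 libraries, with m1A scores of 3100 in each air library. Its m6A-titled percentiles were 90.0 and 59.8 in ethylene 1 and 2 and 97.2 and 97.3 in air 1 and 2. A peak this short is far below the read length given in the labels, and how the peak caller arrived at it is not stated.

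The other regions met in all 4 m6A-titled libraries varied in their within-list percentile. Peaxi162Scf00145 197754 to 198506 lay inside a peak of 2889 bp on the minus strand, at percentiles 97.2 and 97.6 in m6A-titled ethylene 1 and 2 and 97.2 and 97.3 in air 1 and 2. Peaxi162Scf00432 447852 to 448233 matched an m6A-titled peak of 382 bp on the plus strand, at 13.7 and 52.4 in the ethylene libraries and 87.2 and 28.0 in the air libraries. Peaxi162Scf00195 797931 to 798115 shared its start with a plus-strand peak of 448 bp, at 70.0 and 52.6 in the ethylene libraries and 80.8 and 73.7 in the air libraries. The treatments overlapped in the first 2 of these and not in Peaxi162Scf00195, where the air libraries were higher. In Peaxi162Scf00145 the score was 3100 in m6A-titled ethylene 2 and in both air libraries, so those percentiles differ only through the lists. Peaxi162Scf01221 100697 to 100873 (plus) stood at 77.0 and 71.8 in the ethylene libraries and 58.0 and 80.0 in the air libraries. Peaxi162Scf00439 577483 to 577586 (minus) stood at 77.3 and 64.2 in the ethylene libraries and 64.5 and 79.9 in the air libraries. The treatments overlapped in both. In Peaxi162Scf00784 and Peaxi162Scf00294, described above, they did not overlap and the air libraries were higher, as in Peaxi162Scf00195. These differences in single regions were not tested.

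Shared edges were also found between the m1A lists and the m6A-titled lists. In 11 of the 18 regions (61.1%) the bounds of the merged region were exactly those of an m6A-titled peak, and 16 (88.9%) shared at least 1 bound with one. For the mixed regions of 3 libraries that overlapped an m6A-titled peak these shares were 52.1 and 93.4%, and for regions of 3 air and at least 1 ethylene library 54.0 and 96.0%. Of 132 overlapping pairs of an air-only m1A peak and an m6A-titled peak, 60.6% had the same start and 56.8% the same end. These pairs all come from the 18 regions, which count once for each pair of lists, and are not independent. Peaxi162Scf00017 3094266 to 3094607, Peaxi162Scf00055 573440 to 573676 and Peaxi162Scf00105 632287 to 632788 were met in 3, 3 and 2 m6A-titled libraries, each with an edge in common.

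The strand of m6A-titled peaks placed neighbouring air-only regions more often on their 3′ side. For 57 air-only regions whose nearest m6A-titled peak lay within 5 kb without overlap, 39 (68.4%) lay 3′ of that peak and 18 lay 5′ of it. The share was 147 of 245 for the mixed regions of 3 libraries, 71.8% for those of 3 air and at least 1 ethylene library and 62.5% for all m1A regions. The air-only value lies within the range of these sets. It was lower in a narrower window, with 58.1% of 31 regions within 2 kb (95% exact binomial interval 39.1 to 75.5%), against 68.4% within 5 kb (54.8 to 80.1%). Without each m1A library in turn it was between 62.6 and 70%.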

How the data were processed

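RNA of petunia corollas was fragmented, immunoprecipitated and sequenced, per the labels' protocols. The authors deposited 1 peak list per library, with a score for each peak from the authors' peak caller. The m1A lists have 5 columns and the m6A-titled lists 6, the last a strand. The submitters' processing notes name MACS 1.4.2, STAR 2.5.1b, cutadapt 1.9.3 and CASAVA 1.4, without roles, and the builds hg19 and mm10. These do not match the scaffold names (Peaxi162) of the lists. Positions are on those scaffolds, with BED starts moved by 1 to count from 1. No genome or annotation was used here, so genes, exons and UTRs are not given. Depth is unknown, and gaps in the peak numbers show that each list was filtered, in a way not stated here.

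Peaks were merged, ranked within lists and measured with Python 3.11.15, numpy 2.4.6 and pandas 2.3.3, checked on simulated lists. Tied scores took the middle rank. Exact permutation over libraries tested the m6A-titled shares. The regions and measures were chosen with earlier results of these data known. Named regions were the 5 widest, the 5 with the longest core, the 5 of highest mean percentile, the 5 nearest to and the 5 farthest from an ethylene peak, up to 10 with m6A-titled overlap, 5 with identical edges, the 3 largest stretches and 3 regions just outside the rule, with ties by position.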

Additional observations from a re-analysis of the deposited data

How the results depend on the processing

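Depth and the meaning of a score are unknown, so short lists limit the set of regions. With m1A peaks of score 3100 or more, 142 regions passed, with a median width of 371 bp. Tied scores at the lowest rank brought the mean percentile to 41.1, against 61.3 with the middle rank. With the middle rank it was 64.3 for regions shared with ethylene. It was 62.0 and 63.5 for regions of 2 and of 1 air library without ethylene, so 61.3 is not high among these kinds. A window of 5 kb gave ethylene peaks near 33.4% per library. Overlap with m6A-titled peaks was 2.05% with scores of 100 or more, and also 2.05% with regions of 2 or more libraries. Both settings leave fewer m6A-titled peaks to overlap, and no share of other m1A regions is given at them. The m6A-titled difference, 0.61 points, turned to -0.51 with scores of 100 or more, -0.20 by overlap and -0.31 within 1 kb, with exact permutation p of 0.333 to 1 over its alternatives. Air-only regions within 2 kb of each other made up 6.56%. Leaving out 1 library gave 502 to 2959 regions, widths of 201 to 286 bp, percentiles of 55.1 to 68.8 and identical starts in 35.4 to 48.2%. It gave ethylene peaks within 1 kb of 10.4 to 18.6%, m6A-titled overlap of 2.87 to 4.36%, differences of -1.33 to 2.56 points, 3′ sides of 62.6 to 70% and neighbours within 5 kb in 9.76 to 31.6%. Pairing by number is not given in the labels beyond the number, and deviations correlated by 0.026 between m6A-titled libraries of 1 number. With the replicate block the difference was 0.61 points (exact permutation p = 1 over 4 sign patterns). Of 90 alternative values, 64 kept to their range or side. The share of each list near the regions was added after the data were seen.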
